A study of Macaca mulatta with 2 samples.

Results

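Enzymes that neutralise reactive and foreign compounds were followed in cultured Sertoli cells of rhesus macaques (Macaca mulatta), somatic cells that nourish the germ cells of the seminiferous tubule. The set was chosen by gene name. It holds the glutathione transferases (GSTA, GSTK, GSTM, GSTO, GSTP, GSTT, GSTZ and MGST genes), the aldo-keto reductases of the AKR1 family, the UDP-glucuronosyltransferases (UGT1A and UGT2B), the sulfotransferases (SULT1 and SULT2), the paraoxonases PON1 to PON3 and the epoxide hydrolases EPHX1 and EPHX2. By that rule 77 probes for 52 genes were members, of 21495 named genes on the array. Of the 52 genes, 33 were measured on both arrays, meaning that a probe was flagged well above background, 1 was measured on the pubertal array alone and 18 on neither.

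The pubertal culture came from males of 18 to 22 months that had been given gonadotropin-releasing hormone (GnRH) through a catheter over 4 to 5 weeks to bring on puberty, in pulses of 2 min at a rate of 0.15 µg/min and an interval of 3 h. The infant culture came from males under 3 months old. Both primary cultures were held for 12 h with testosterone (100 nM) and follicle-stimulating hormone (5 ng/ml), so no culture without these hormones entered the comparison. Each group had 1 array, no difference has a replicate or a test, and animal, culture, age and GnRH treatment cannot be told apart. How many animals went into each culture is unstated in the labels.

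Detoxification runs in steps. Oxidising enzymes expose or create a reactive group, and transferases then join it to glutathione, glucuronic acid or sulfate, which makes the product soluble and ready for export. Aldo-keto reductases reduce aldehydes and ketones, epoxide hydrolases open epoxides with water, and paraoxonases open lactones. In the testis many of the same enzymes also handle steroids, and Sertoli cells form the blood-testis barrier behind which germ cells develop.

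The array carried human probes of 60 bases, and paralogues in these families are alike enough that neighbouring genes can share signal. Among 2926 pairs of member probes, 7 pairs from different genes were at least 80% identical over at least 40 bases, and in 4 of these pairs both probes were well above background on both arrays. Those 4 pairs are printed because their likeness bears on which genes the probes can separate. Probes were compared with other probes and not with macaque transcripts, so what each probe reads was not tested. Capitals mark the bases that differ within a pair where both probes overlap.
GSTA2: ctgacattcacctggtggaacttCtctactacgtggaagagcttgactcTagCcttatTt
GSTA5: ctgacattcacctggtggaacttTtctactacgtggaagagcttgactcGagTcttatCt
GSTM3: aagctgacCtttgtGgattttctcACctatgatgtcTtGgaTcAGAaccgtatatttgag
GSTM4: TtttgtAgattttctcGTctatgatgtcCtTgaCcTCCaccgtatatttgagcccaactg
AKR1C1: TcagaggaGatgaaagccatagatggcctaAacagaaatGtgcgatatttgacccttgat
AKR1C3: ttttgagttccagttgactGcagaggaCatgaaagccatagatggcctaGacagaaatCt
UGT2B10: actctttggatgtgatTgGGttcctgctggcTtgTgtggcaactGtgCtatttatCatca
UGT2B17: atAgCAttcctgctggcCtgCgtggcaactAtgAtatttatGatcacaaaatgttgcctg

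The GSTA2 and GSTA5 probes were identical at 56 of 60 bases, with 4 differing bases. The GSTM3 and GSTM4 probes shared 42 of 52 overlapping bases, the AKR1C1 and AKR1C3 probes 37 of 41, and the UGT2B10 and UGT2B17 probes 38 of 46. The probes of 3 further genes are printed because they carry large differences and have no such pair among the member probes.
PON3: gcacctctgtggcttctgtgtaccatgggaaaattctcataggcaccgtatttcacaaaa
MGST1: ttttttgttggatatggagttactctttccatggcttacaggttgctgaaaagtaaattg
GSTZ1: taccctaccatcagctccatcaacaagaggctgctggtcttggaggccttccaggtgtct

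Levels are given as log2 of the processed signal relative to the 75th percentile of its array, which was 406.7 intensity units for the pubertal and 382.4 for the infant culture. Differences are pubertal minus infant on that log2 scale. The scanner error after ± combines the scanner software's errors of both arrays and of the probes used. It leaves out the spread between probes of a gene and between cultures. The share of gene spots well above background was 54.9% in the pubertal and 54.8% in the infant culture, and no spot was saturated. All 14 Sertoli cell markers were measured on both arrays, with a summed level of 335 in the pubertal and 250 in the infant culture, each summed on the linear scale in multiples of the 75th percentile. The largest single change in this sum was that of transferrin (TF), with log2 levels of 6.29 (pubertal) and 2.98 (infant). Of the 14 markers, 4 were at least 2-fold higher in the pubertal culture (TF, anti-Müllerian hormone AMH, DMRT1 and SOX8) and INHBB was 2.48-fold lower. Other cell types differed between the cultures as well. Germ cell markers included 6 at least 2-fold higher and 1 lower among 7 on both arrays, with DDX4, SYCP3 and KIT on the pubertal array alone and PIWIL1 measured on neither. The germ cell sum, over genes measured on both arrays, was 20.9 in the pubertal and 34.9 in the infant culture. Most of it in each culture was UCHL1, the gene that was lower by 1.52, with log2 levels of 3.58 (pubertal) and 5.10 (infant). The direction of this sum is thus that of UCHL1 and not of the other markers.

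Of the 33 genes measured on both arrays, 10 were at least 2-fold higher in the pubertal culture and 5 at least 2-fold lower. The higher genes include GSTA2 with GSTA5 and UGT2B10 with UGT2B17, pairs with similar probes that may not be separate readings. Among all 14243 named genes measured on both arrays, 7.32% were at least 2-fold higher, 6.32% at least 2-fold lower and 13.6% either. These genes were picked with earlier results of the same arrays known, so their counts are a description and nothing is read from the gap. The median difference of the 33 genes was 0.21, against -0.06 over all 14243 genes. Signs were mixed, with 18 differences above 0 and 15 below. The members that were higher fell mostly in the alpha glutathione transferases, the UGT2B genes and the paraoxonase PON3, and those that were lower were GSTZ1, MGST1, the AKR1B genes and EPHX1. In a bulk culture, fewer cells of a type and less RNA per cell cannot be told apart.

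**Figure D1:**
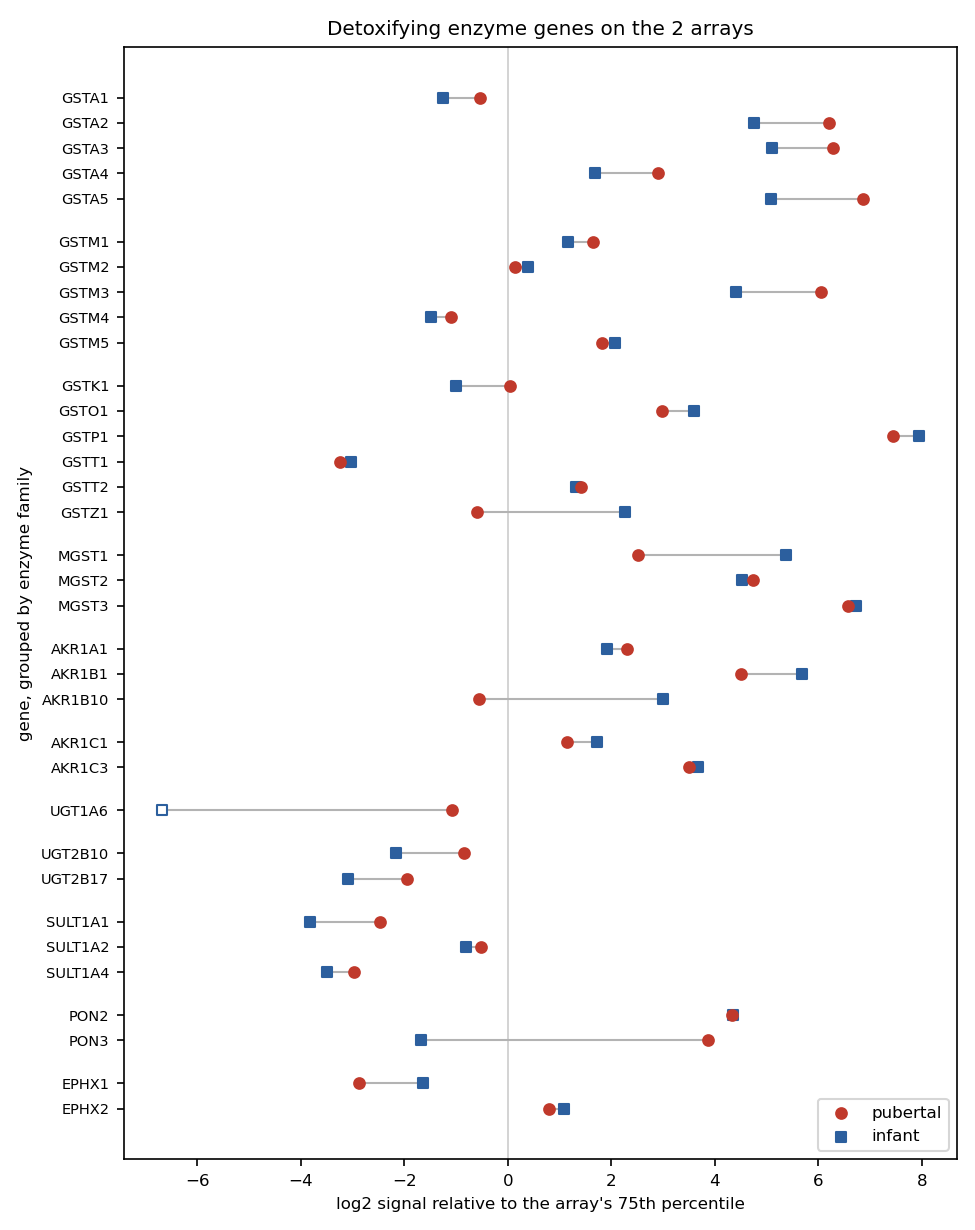
Log2 signal relative to the array's 75th percentile (horizontal axis) of the 33 genes measured on both arrays and UGT1A6, grouped by family; circles are the pubertal and squares the infant array, 1 array each. The hollow square is UGT1A6 on the infant array, which was not well above background, and the widest gap among genes measured on both arrays is that of PON3.

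The alpha glutathione transferases conjugate electrophiles and reduce organic peroxides, and in human steroidogenic tissue GSTA3 also acts as a steroid isomerase. All 5 alpha genes had higher signals in the pubertal culture, and 4 of them by at least 2-fold, with a family median of 1.20. GSTA5 had a signal of 47408 intensity units in the pubertal culture and 12935 in the infant culture, levels of 6.86 (pubertal) and 5.08 (infant), a difference of 1.78 ± 0.20 or 3.45-fold. GSTA2 was read by 2 probes, one at 82347 units in pubertal and 23544 in infant cells and the other at 11094 units in pubertal and 4537 in infant cells. Both GSTA2 probes were therefore higher in the pubertal culture, by 1.72 and 1.20, and the gene's mean difference was 1.46 ± 0.14 (2.75-fold). The probe with the difference of 1.72 is the one printed above, 4 bases from that of GSTA5, so those values may not be separate measurements. The second GSTA2 probe has no such partner among the member probes.

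GSTA3 had 31944 units in the pubertal and 13211 in the infant culture, a difference of 1.18 ± 0.20 (2.27-fold). GSTA4, which conjugates 4-hydroxynonenal, a toxic aldehyde of lipid peroxidation, had 3027 units in pubertal and 1239 in infant cells, a difference of 1.20 ± 0.20. GSTA1 was the alpha gene with the smallest difference. It had 282 units in the pubertal and 160 in the infant culture, a difference of 0.73 ± 0.21, short of 2-fold. In the RefSeq macaque gene table the 5 alpha genes lie in the order GSTA4, GSTA3, GSTA5, GSTA1, GSTA2 on chromosome 4, with other loci between some of them; GSTA5 is there a synonym of LOC709417. Of the nearest flanking genes measured on both arrays, FBXO9 differed by -0.10, TMEM14A by 0.20 and TRAM2 by -0.35.

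The mu class did not shift together. GSTM3, known in humans from testis and brain, was at least 2-fold higher in the pubertal culture, and the 4 other mu genes were within 2-fold. One GSTM3 probe had 36736 units in pubertal and 12483 in infant cells, and a second had 19642 units in pubertal and 5289 in infant cells. Their differences were 1.47 and 1.80, which gave the gene levels of 6.05 (pubertal) and 4.41 (infant) and a difference of 1.64 ± 0.14 (3.11-fold). Another GSTM3 probe was not well above background in either culture, at 5.34 units in the pubertal and 5.11 in the infant culture.

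Of the other mu genes, GSTM1, the enzyme that many people lack through a gene deletion, differed by 0.49 and GSTM4 by 0.39. GSTM2, a muscle form, and GSTM5 both differed by -0.25. The 3 probes of GSTM4 differed by 0.12, 0.18 and 0.86, and the last lay in a disturbed area of the slide; without it the GSTM4 difference was 0.15. The GSTM4 probe that shares 42 of 52 bases with GSTM3 differed by 0.18, against 1.80 for its GSTM3 partner. These probes thus did not give the same value, and whether they share some signal was not tested. In the macaque assembly the order is GSTM3, GSTM5, GSTM1, GSTM2, GSTM4, which places the gene with the largest difference at one end of the cluster. Its neighbour EPS8L3 differed by -0.18, and the next gene, CSF1, was past 2-fold higher, with levels of -1.52 in pubertal and -2.62 in infant cells.

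The classes with 1 or 2 members went in both directions. GSTZ1, the maleylacetoacetate isomerase of tyrosine breakdown, had 269 units in the pubertal and 1831 in the infant culture. Its levels were -0.60 (pubertal) and 2.26 (infant), a difference of -2.86 ± 0.21, or 7.25-fold lower in the pubertal culture. It ranked 29 from the lowest of the 14243 differences. GSTK1, the transferase of mitochondria and peroxisomes, was at 421 units in pubertal and 192 in infant cells, a difference of 1.04 ± 0.21 (2.05-fold), close to the limit of 2-fold. GSTP1, the widely expressed pi class enzyme, had 71207 units in the pubertal and 94572 in the infant culture, a difference of -0.50 ± 0.20. With quantile normalization GSTP1 differed by -0.10 and with loess by -0.23. GSTO1, which reduces dehydroascorbate, differed by -0.61 and -0.62 on its probes. The theta genes GSTT1 and GSTT2 differed by -0.21 and 0.10, and GSTO2 was not well above background in either culture. Probes named GSTT2B, which falls outside the rule, differed by 0.77 and 1.17. In the macaque table GSTT2 is a synonym of GSTT2B, so these names may stand for the same macaque gene, and their probes did not give the same value.

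Among the microsomal transferases, membrane proteins unrelated in structure to the soluble ones, only MGST1 passed 2-fold. MGST1, which sits in the endoplasmic reticulum and outer mitochondrial membrane and also reduces lipid peroxides, had 2314 units in the pubertal and 15863 in the infant culture. With levels of 2.51 (pubertal) and 5.37 (infant) it differed by -2.87 ± 0.20, or 7.29-fold lower in pubertal cells, ranking 28 from the lowest. MGST2 and MGST3, which can make leukotriene C4, differed by 0.21 and -0.14. MGST3 had 39044 units in pubertal and 40372 in infant cells, so the cultures differed by less than the scanner error of 0.20.

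Some markers of Leydig cells, the steroid-making cells outside the tubule, went in the same direction as MGST1 and GSTZ1. Of 7 measured on both arrays, 3 were at least 2-fold lower in the pubertal culture (STAR by -4.24, CYP17A1 by -4.21 and CYP11A1 by -1.37) and none at least 2-fold higher, and LHCGR was measured on neither. The summed Leydig level was 69.9 in the pubertal and 170 in the infant culture. Most of that gap was STAR, with log2 levels of 2.41 (pubertal) and 6.65 (infant). The other 4 markers were above 0, with HSD3B1, HSD3B2, INSL3 and NR5A1 at 0.29, 0.25, 0.41 and 0.17. The median difference of the 7 markers was 0.17. The part of Leydig cells in the lower signals was not tested.

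**Figure D2:**
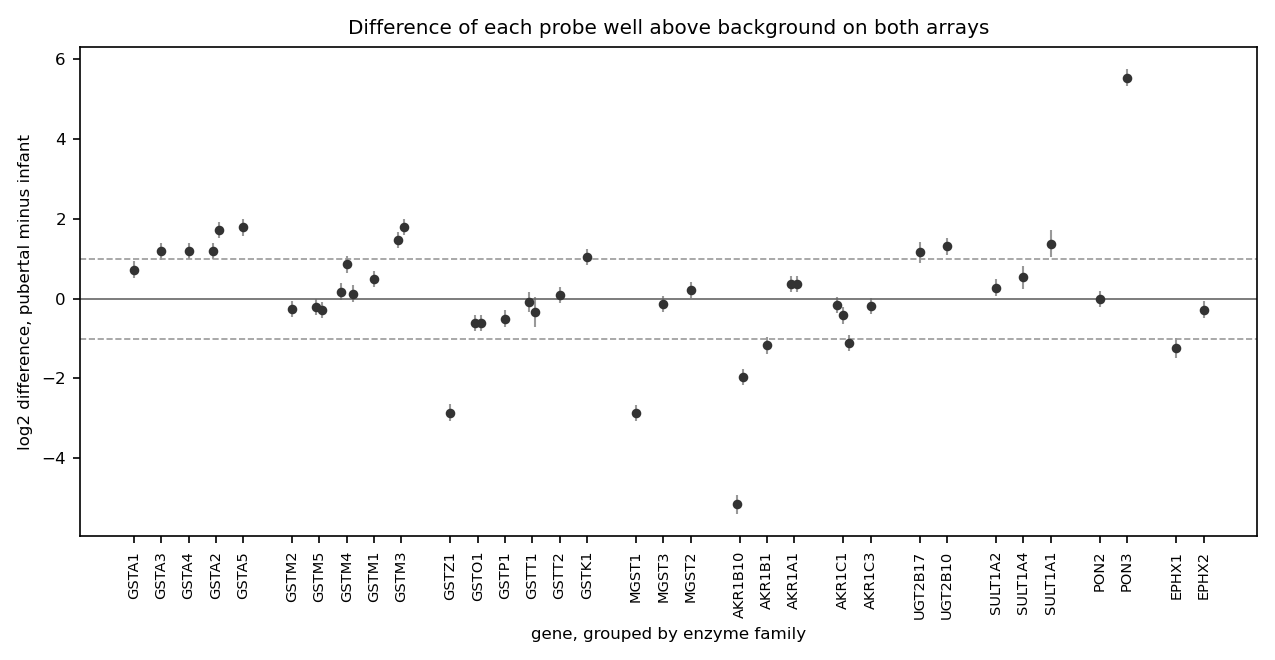
Log2 difference, pubertal minus infant (vertical axis), of each probe well above background on both arrays, by gene and family (horizontal axis); bars are the scanner error, dashed lines mark 2-fold. The probes of AKR1B10 lie apart at -5.15 and -1.96, and in each of the 9 genes with several probes they are on the same side of 0.

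Of the 5 aldo-keto reductases measured, AKR1B10 and AKR1B1 were at least 2-fold lower in the pubertal culture and none at least 2-fold higher. The related names AKR1CL1 and AKR1CL2, outside the rule, were higher by 1.64 and 2.08. AKR1B10, which reduces retinal and lipid aldehydes, had the lowest difference of all 33 genes and ranked 16 from the lowest of all genes measured. One of its probes had 49.9 units in pubertal and 1669 in infant cells, and the other had 1526 units in pubertal and 5566 in infant cells. Both were lower in the pubertal culture, but by very different amounts, -5.15 and -1.96, and their mean was -3.55 ± 0.16. The probe at -1.96 shares 40 of 43 overlapping bases with a probe that the design names tcag7.1260, whose level was -6.46 and not well above background in the pubertal culture and -2.03 in the infant culture. AKR1B1, aldose reductase, which turns glucose into sorbitol, had 9267 units in the pubertal and 19621 in the infant culture, a difference of -1.17 ± 0.20 (2.25-fold lower). AKR1A1, aldehyde reductase, went the other way by 0.38 and 0.36 on its probes.

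In the AKR1C genes, which convert steroids, no difference reached 2-fold. AKR1C3, a 17-ketosteroid reductase that can make testosterone, had 4590 units in the pubertal and 4895 in the infant culture, a difference of -0.18 ± 0.20. AKR1C1, which inactivates progesterone, differed by -0.16, -0.42 and -1.12 on its probes, a mean of -0.57, and -0.16 with its brightest probe alone. The probe at -1.12 is the one that shares 37 of 41 bases with AKR1C3. A further AKR1C1 probe was well above background in pubertal cells alone, at 34.4 units in pubertal and 10.3 in infant cells. AKR1C4, the liver form, and AKR1D1, which makes bile acid precursors, were measured on neither array.

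Glucuronosyltransferases were mostly not measurable. UGT2B17, which conjugates testosterone and other androgens in humans, had 106 units in the pubertal and 44.7 in the infant culture, a difference of 1.16 ± 0.26 (2.23-fold). UGT2B10 had 226 units in pubertal and 85.5 in infant cells, a difference of 1.31 ± 0.21 (2.48-fold). Both were thus higher in the pubertal culture, on probes that share 38 of 46 bases, so they may read the same transcripts. A second probe of each gene was not well above background in either culture. UGT2B17 differed by 0.48 with normexp background correction and by 0.26 with the median of all its probes, and UGT2B10 by 0.91 with normexp. UGT2B4, UGT2B7, UGT2B11, UGT2B15 and UGT2B28 were not well above background in either culture.

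UGT1A6, which conjugates small phenols, was the only member well above background on 1 array alone, as were 4.21% of all named genes on the pubertal array. Its probe had 192 units in the pubertal and 3.71 in the infant culture, levels of -1.08 (pubertal) and -6.69 (infant). Against the lowest signal well above background on the infant array, -4.37, this is at least 9.78-fold higher in pubertal cells. The other UGT1A6 probe did not share this, with 21.8 units in pubertal and 16.7 in infant cells, not well above background on either. UGT1A8 was measured on neither array.

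The sulfotransferases were dim where they were measured at all. SULT1A1, the main phenol sulfotransferase, had 74.0 units in the pubertal and 26.9 in the infant culture, a difference of 1.37 ± 0.34 (2.59-fold). With normexp background correction SULT1A1 differed by 0.43. Its near relatives SULT1A2 and SULT1A4 differed by 0.27 and 0.54, the value of SULT1A4 being 0.14 with normexp. SULT1A3, SULT1B1, SULT1C2, SULT1C3, SULT1C4, SULT1E1, SULT2A1 and SULT2B1 were not well above background in either culture, among them the estrogen sulfotransferase SULT1E1 and the dehydroepiandrosterone sulfotransferase SULT2A1. Of all 20 UGT and SULT genes, 14 were measured on neither array, against 26.3% of all named genes. A human probe can miss a monkey transcript through mismatches, so a dim probe does not show that a transcript was missing.

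The largest difference of any member belonged to PON3, a lactonase that is bound to high-density lipoprotein in blood and also found inside cells. PON3 had 5937 units in the pubertal culture and 120 in the infant culture, levels of 3.87 (pubertal) and -1.67 (infant). The difference of 5.54 ± 0.21, or 46.5-fold, ranked 8 from the highest of 14243 and rests on 1 probe, printed above. PON2, the intracellular paraoxonase, had 8172 units in pubertal and 7771 in infant cells, a difference of -0.02 ± 0.20. PON1, the paraoxonase of serum, was not well above background in either culture with either of its probes. The 3 genes lie side by side in the macaque assembly in the order PON2, PON3, PON1. Of the genes around them, ASB4 differed by 0.14, PDK4 by 0.65, PPP1R9A by -0.35 and SGCE by 0.37, and the imprinted gene PEG10, between PPP1R9A and SGCE, was lower by 2.53 on the log2 scale. These neighbours were looked up after the values of PON3 were known.

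Markers of further cell types that mostly moved in the direction of PON3 and the GSTA genes were those of germ cells, given above, muscle, macrophages and endothelium. Of 8 markers of peritubular myoid and smooth muscle cells, 5 were at least 2-fold higher in the pubertal culture and none at least 2-fold lower. LMOD1 went the other way, at -0.85. The summed level of these 8 markers was 197 in pubertal and 128 in infant cells. Macrophage markers summed to 4.05 in the pubertal and 0.830 in the infant culture. Of 4 measured on both arrays, 2 were at least 2-fold higher, and CD68 went the other way, at -0.94. C1QB and MRC1 were on the pubertal array alone, and LYZ and C1QA were measured on neither. Endothelial markers summed to 1.58 in pubertal and 0.743 in infant cells. PECAM1 differed by 1.43, VWF by 0.99 and ESAM by 0.26, TEK was measured in the pubertal culture alone, at least 2.06-fold higher, and CDH5, KDR and TIE1 in neither. The part of these cells in the higher signals was not tested. Liver cells, where many of these enzymes are abundant, had ALB, APOB, TTR and CYP3A4 measured on neither array. Of the other liver markers, SERPINA1 differed by 0.20, F2 by -0.02, AHSG by -0.19 and APOA1 by -1.43. Their sums were 41.1 in the pubertal and 109 in the infant culture, nearly all of it APOA1.

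EPHX1, the microsomal epoxide hydrolase, had 55.4 units in the pubertal and 123 in the infant culture, a difference of -1.24 ± 0.25 (2.37-fold lower). EPHX2, the soluble form that acts on fatty acid epoxides, had 711 units in pubertal and 808 in infant cells and differed by -0.27 ± 0.20. EPHX1 was at -0.72 with normexp background correction.

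**Figure D3:**
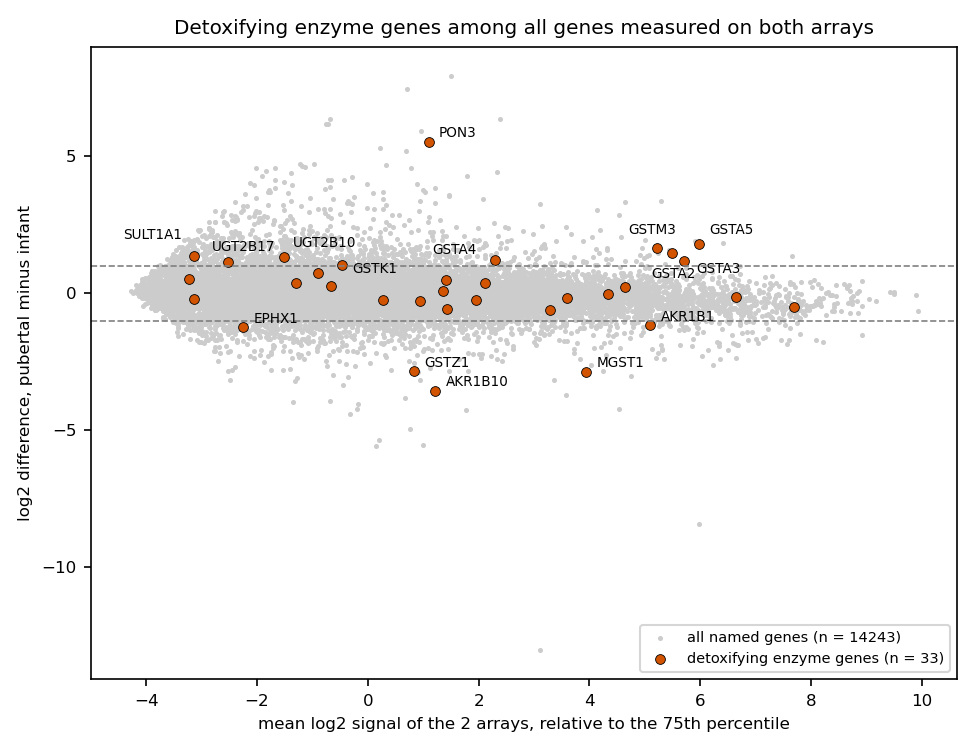
Log2 difference, pubertal minus infant (vertical axis), against the mean log2 signal of both arrays (horizontal axis) for 14243 named genes (grey) and the 33 detoxifying enzyme genes (orange); dashed lines mark 2-fold. PON3 stands at 5.54 near the upper edge of the cloud, and AKR1B10, MGST1 and GSTZ1 at -3.55, -2.87 and -2.86 near its lower edge.

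The other genes of the pathway were taken from lists written with earlier results of these arrays known. None of the 19 measured genes of glutathione supply and peroxidases was past 2-fold in either direction, against 13.6% of all genes, and their median was -0.22. GCLC, the catalytic subunit of the first step of glutathione synthesis, differed by 0.56, and glutathione reductase GSR by -0.90. GPX5 (-0.97) and GLRX (-0.90) were likewise close to 2-fold lower. GPX1, the main cytosolic glutathione peroxidase, differed by 0.62. The cystine importer SLC7A11 was measured on the infant array alone and at least 1.95-fold lower in pubertal cells. GPX2 was likewise on the infant array alone, at least 1.43-fold lower.

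Of 29 measured oxidising and reducing enzymes, 3 were at least 2-fold higher in the pubertal culture and 4 at least 2-fold lower, against 7.32% and 6.32% of all genes. The cytochrome P450 genes CYP1A1 and CYP1B1, both known targets of the aryl hydrocarbon receptor, were on opposite sides. CYP1A1 was higher by 2.11, with levels of -0.79 in pubertal and -2.90 in infant cells, and CYP1B1 lower by 2.22, with levels of 0.95 in pubertal and 3.16 in infant cells. The carbonyl reductase CBR1 (1.56) and CYP3A7 (1.11) were higher, and monoamine oxidase MAOB (-1.31), the carboxylesterase CES1 (-1.18) and CBR3 (-1.14) lower. CYP2E1, measured in the pubertal culture alone, was at least 3.40-fold higher there, and FMO1, measured in the infant culture alone, was at least 1.75-fold lower in pubertal cells.

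Genes of cofactor supply and other transferases had a median of -0.47 over 16 genes, with 2 past 2-fold in each direction. SULT4A1, a brain sulfotransferase, was higher by 1.70 and UGT8, which makes galactosylceramide, by 1.28. SLC35D1, a transporter that carries UDP-glucuronic acid into the endoplasmic reticulum, differed by -1.75 and the arsenic methyltransferase AS3MT by -1.22. The lysosomal glucuronidase GUSB, measured in pubertal cells alone, was at least 4.54-fold higher there. The histamine methyltransferase HNMT, measured in infant cells alone, was at least 1.89-fold lower in pubertal cells. Among 7 conjugate exporters ABCC5 alone passed 2-fold, at 1.02, beside 13.6% of all genes past 2-fold in either direction. ABCB1 was on the infant array alone, at least 1.06-fold lower.

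Of 14 regulators measured on both arrays, 1 was past 2-fold upward and 2 downward, beside 7.32% and 6.32% of all genes. NFE2L2 (NRF2), the activator of many glutathione transferase genes under oxidative stress, differed by -0.24, and KEAP1, which marks it for degradation, by -0.17. AHRR, the repressor of the aryl hydrocarbon receptor, was higher by 1.73, with levels of -2.31 in pubertal and -4.04 in infant cells. ARNT, the partner of the receptor, differed by -0.03 and the receptor gene AHR was measured on neither array. PPARGC1A differed by -1.15 and MAFF, a small Maf protein, by -1.08.

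**Figure D4:**
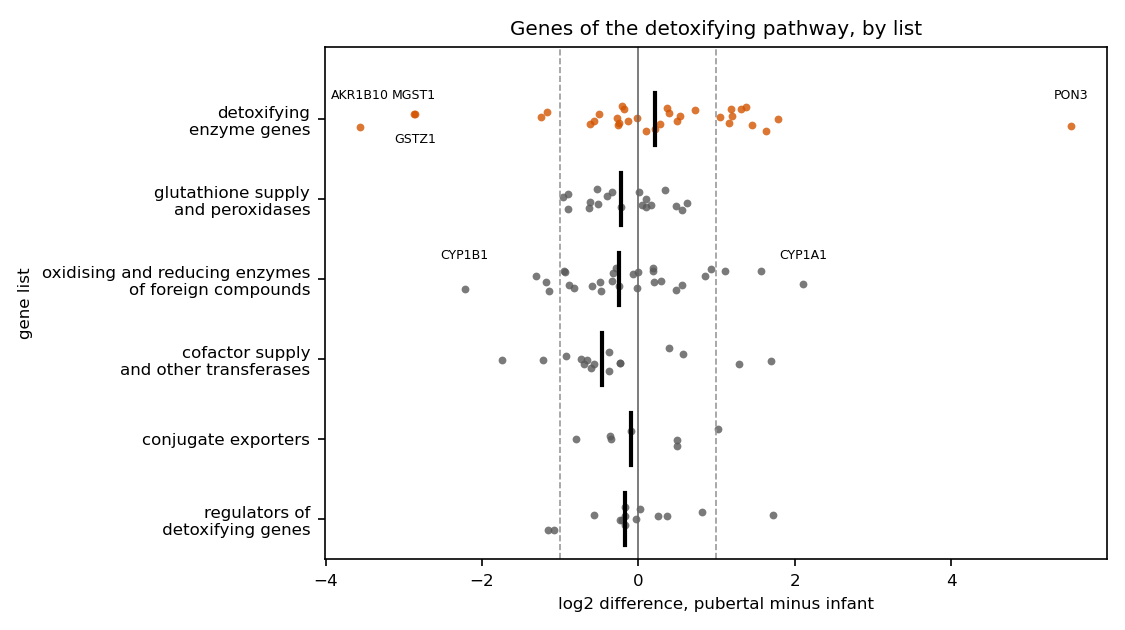
Log2 difference, pubertal minus infant (horizontal axis), of each gene measured on both arrays, for the detoxifying enzyme genes and 5 pathway lists (vertical axis); black bars are medians and dashed lines mark 2-fold. The detoxifying enzyme genes spread from -3.55 to 5.54, and the glutathione supply genes all lie within 2-fold.

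The 15 genes past 2-fold kept their sign in all 13 other ways of processing that gave a value for each gene. PON3, GSTA2, GSTA3, GSTA4, GSTA5, GSTM3, AKR1B10, GSTZ1 and MGST1 were past 2-fold in all 13. GSTK1 was past 2-fold in 11, at 0.84 with normexp and 0.88 with scaling on the median. AKR1B1 was past it in 10 and at -0.26 with scaling on the spike-in probes, where EPHX1 was at -0.33. Spike-in scaling raised the median of all genes by 0.91, and the directions above are relative to the 75th percentile. On the spike-in scale 10 genes turned from below to above 0: AKR1C1, AKR1C3, EPHX2, GSTM2, GSTM5, GSTO1, GSTP1, GSTT1, MGST3 and PON2. Among them GSTO1 was at 0.30 there against -0.61, AKR1C1 at 0.35 against -0.57 and GSTP1 at 0.41 against -0.50, and these differences from 0 exceed the scanner error on the 75th percentile scale.

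**Figure D5:**
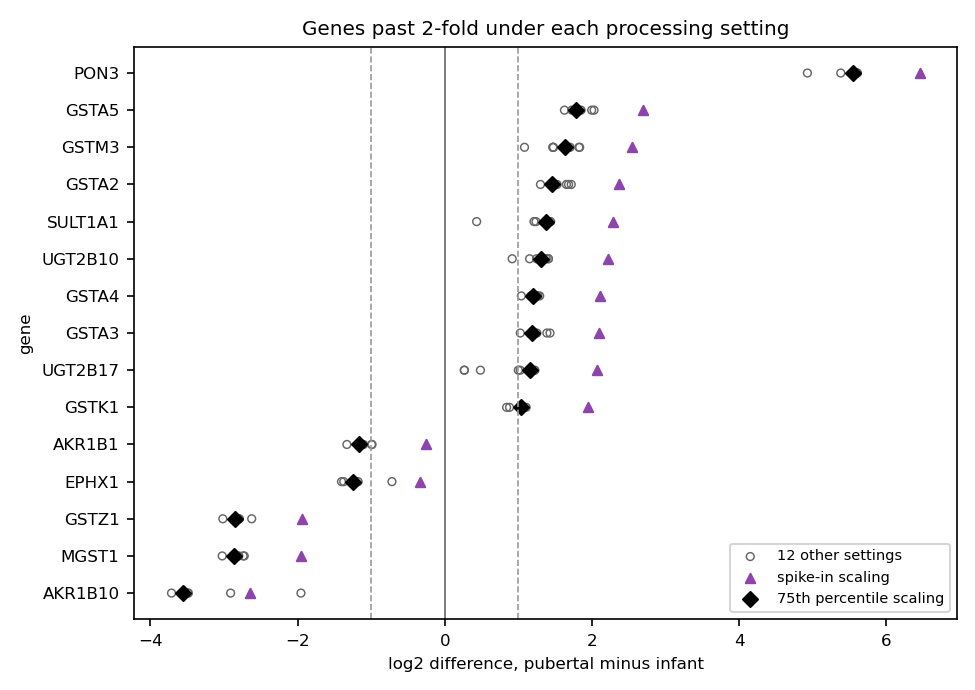
Log2 difference, pubertal minus infant (horizontal axis), of the 15 genes past 2-fold (vertical axis) under 75th percentile scaling (diamonds), spike-in scaling (triangles) and 12 other settings (circles); dashed lines mark 2-fold. PON3 stays between 4.93 and 6.45, and the largest spread toward 0 is that of AKR1B10, which reaches -1.96 with its brightest probe.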

How the data were processed

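RNA of 2 cultures was labelled with Cy3 and hybridised to 1 one-colour Agilent array each, on the same slide and in the same scan, per the file headers. The deposited values are spot intensity values from Agilent Feature Extraction 10.5.1.1, background-subtracted and spatially detrended by the authors' software with no scaling between arrays, per the file headers. The design is a human one on hg18, per the file headers, and probe positions were not used. Flags for spots well above background and outliers, and the software's error, were used as deposited.

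The log2 of the processed intensity was taken and each array's 75th percentile subtracted. Outlier spots (96 pubertal, 91 infant) were left out. A probe counted where at least 50% of its spots were well above background, and probes of a gene measured on both arrays were averaged. Of 33 such members, 24 rest on 1 probe. A gene on 1 array alone got a lower bound of its fold, set against its own signal on the dim array or the least signal well above background there (-4.29 pubertal, -4.37 infant), whichever was higher. Members were matched on the whole gene name. Of the 52 names, 39 are macaque symbols or synonyms in the RefSeq macaque table, which gave gene order. The 13 names without a match include AKR1B10, SULT1A1, UGT2B10 and UGT2B17, all past 2-fold, and also UGT1A6 and AKR1C3. For these names no macaque gene was identified.

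Members and lists were chosen with earlier results of these data known. The text names every member past 2-fold or on 1 array, the extremes of each family, and members of the pathway lists past 2-fold; cell type markers are given by counts and sums with some examples, and other genes were chosen after their values were seen. With 1 array per group no test was made, and precision is limited by the number of arrays. Alternatives were normexp with an offset of 50, other scalings (median, detected probes, spike-in probes), quantile and loess (span 0.3) normalization, other filters and probe rules, thresholds of 1.5- and 4-fold, outliers kept, and disturbed areas left out (773 spots). The code for gene values was run on a simulated pair, the infant array used for both groups with added noise and 200 genes changed. The changed genes were picked among brighter ones, so this checked the code and not the values reported here. Python 3.11.15, numpy 2.4.6 and pandas 2.3.3 were used.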

Additional observations from a re-analysis of the deposited data

How the results depend on the processing

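The counts of 10 higher and 5 lower members and their median of 0.21 moved under 3 of the alternatives. Normexp background correction left 6 members at least 2-fold higher, with 4 lower. Scaling on the spike-in probes gave 18 higher and 3 lower and a median of 1.13, and 85.7% of the calls were upward, against 66.7% with the 75th percentile. Over all genes 97.6% of the calls were then upward, against 53.7%, and scaling on the median gave 37.6%. A threshold of 4-fold left 1 higher and 3 lower. Under every other alternative run, the counts stayed between 8 and 12 higher and between 4 and 6 lower. Of the values of single genes under the 13 alternatives that give one, 355 stayed within the scanner error of their first value and 74 moved past it, and no called gene changed sign. No paired analysis was possible because each group had 1 array and the labels carry no replicate numbers; for the same reason no replicate could be left out. Dim probes limit the UGT and SULT genes, and members on 1 probe have no second reading on the array.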
